A study of Musca domestica with 29 samples.

Results

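Heads of male and female house flies (Musca domestica) were compared by RNA-seq in 15 of the 29 libraries of the series: 12 from males and 3 from females. They are all the libraries that the labels give as head. Males came from 4 genotypes with 3 libraries each. YM males of strain IsoCS carried the male-determining locus on the Y chromosome, and YM(III) males of strain bwbCS carried it there too and differed in 1 copy of chromosome III. IIIM #1 males of strain CS and IIIM #2 males of strain CSrab carried it on chromosome III. Apart from these chromosomes the males were labelled isogenic to one another, and so were the females to one another. Each female library came from another strain: IsoCS is female replicate 1, CSrab is replicate 2 and CS is replicate 3, so no strain had 2 female libraries. Flies were dissected singly. The labels give neither age nor mating status, and nothing says whether replicates came from separate cultures, so p-values measure the spread between these libraries only.

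The head of a fly holds the brain, the compound eyes, the antennae and mouthparts, muscle and a layer of fat body. In Drosophila the head fat body and parts of the nervous system are known to differ between the sexes, and fat body of females makes yolk protein for the eggs. Genes of flies are sorted into 6 chromosome arms of shared ancestry, Muller elements A to F. In the house fly element A is chromosome III and the small element F is the X chromosome. Whole heads were sampled, so fewer cells of a type and less RNA per cell cannot be told apart.

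Read depth was 28.99 to 29.84 M reads (M stands for 1e6) in the female libraries and 5.8 to 39.24 M in the male ones, with a male median of 21.5 M. The first principal component, 29.4% of the variance, did not separate the sexes. It set replicates 1 and 2 of the males, at 26.9 to 65.5, apart from replicate 3 of the males, at -70.4 to -28, and the 3 females lay among the latter at -39 to -32.8. On the second component, 18.3% of the variance, the females lay highest, at 34.9 to 69.5 against -56.3 to 16.9 in males. The labels name no batch for this split of the males. The head label was checked with pdf, a neuropeptide gene of clock neurons, which measured 411 to 1620 in male heads and 562 to 624 in female heads, against 0 to 8.8 in abdomens of males and 0 to 0.328 in those of females, in a table normalized separately. The maternal egg gene bcd had 0 reads in all 12 male heads and in 2 of 3 female heads, and measured 0.654 in the IsoCS female, so this ovary marker was at or near 0.

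**Figure D1:**
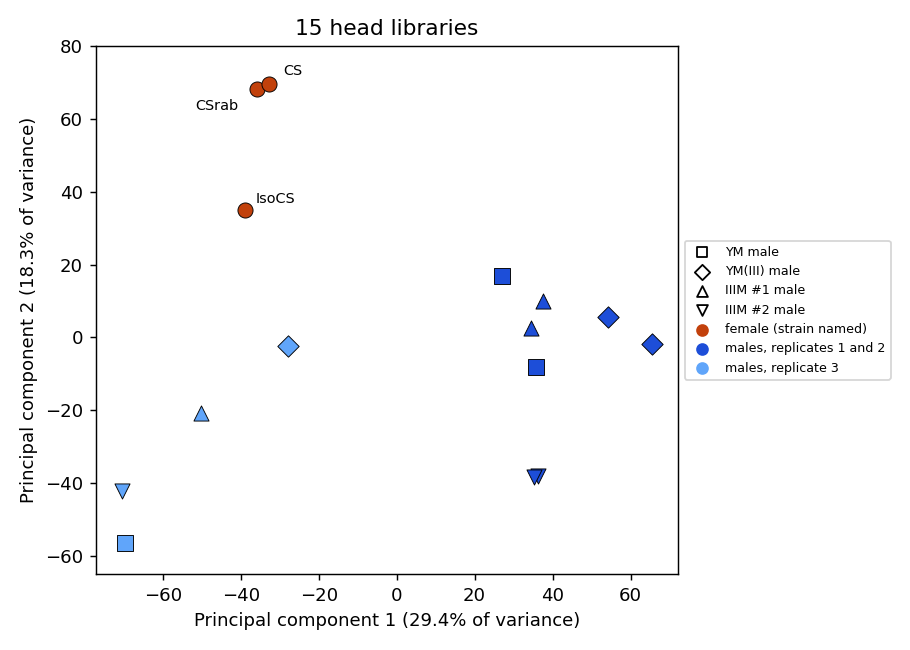
First and second principal components of log2(normalized read count + 1) for the 15 head libraries, coloured by sex and male replicate, with symbols for male genotype. Females lie apart from all males on the vertical axis and beside the replicate 3 males on the horizontal axis.

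Of 12234 genes tested, 2015 (16.5%) differed between male and female heads at a limma adjusted p under 0.05. Of these, 1231 (10.1% of tested) were higher in females and 784 (6.41%) were higher in males. Male values are the mean of the 4 genotype means on the scale log2(normalized read count + 1), and log2 differences are male minus female. The median difference over all tested genes was -0.01. Without an adjustment 3795 genes (31%) had a p under 0.05. In 981 of the 1231 female-higher genes (79.7%) all 3 females lay above all 12 males, and in 556 of the 784 male-higher genes (70.9%) all 12 males lay above all 3 females. Over all tested genes such a gap occurred in 1245 (10.2%) and 761 (6.22%). Set against the 4 replicate 3 males alone, the females differed at 2588 genes, 1201 higher in males and 1387 higher in females. Set against the 8 males of replicates 1 and 2, the females differed at 6457, 3140 and 3317 in the same order. Genotype means were kept in the second fit, while the first pooled its 4 males, 1 per genotype, into a single group. Differences between genotypes entered the error of the first, so the 2 counts are not alike in method. Each female carried weight in the count: 993 genes were called without the IsoCS female (323 higher in males, 670 in females), 886 without the CSrab female (322 and 564) and 965 without the CS female (312 and 653).

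Female-higher genes showed the larger differences. The median log2 difference was -1.15 over the female-higher and 0.78 over the male-higher genes. At 2-fold or more 246 called genes were higher in males (2.01% of tested) and 738 in females (6.03%). The 246 became 144, 158 and 145 without the IsoCS, CSrab and CS female in turn, and the 738 became 400 without the CSrab and 460 without the CS female. Under 2-fold lay 538 of the male-higher genes (68.6%) and 493 of the female-higher genes (40%). From 2 to 4-fold there were 207 and 549 genes, and from 4 to 8-fold 30 and 124. At 8-fold or more, 9 genes were higher in males (1.15% of the male-higher) and 65 in females (5.28%). Libraries of the sexes did not overlap in 58 of these 65 and in 5 of these 9. The filter bears on the contrast of 58 of 65 with 5 of 9, since genes had to reach 10 in at least 3 libraries to be tested. A gene with hardly any reads in males needed all 3 females for that, while any 3 of the 12 males were enough. These 2 shares without overlap are therefore not a measured difference between the sexes. The 65 genes had a median of 340 normalized reads in females and 18 in males, and the 9 had a median of 69.5 in males and 4.47 in females. Male-higher genes changed by under 2-fold had medians of 1350 in males and 872 in females.

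**Figure D2:**
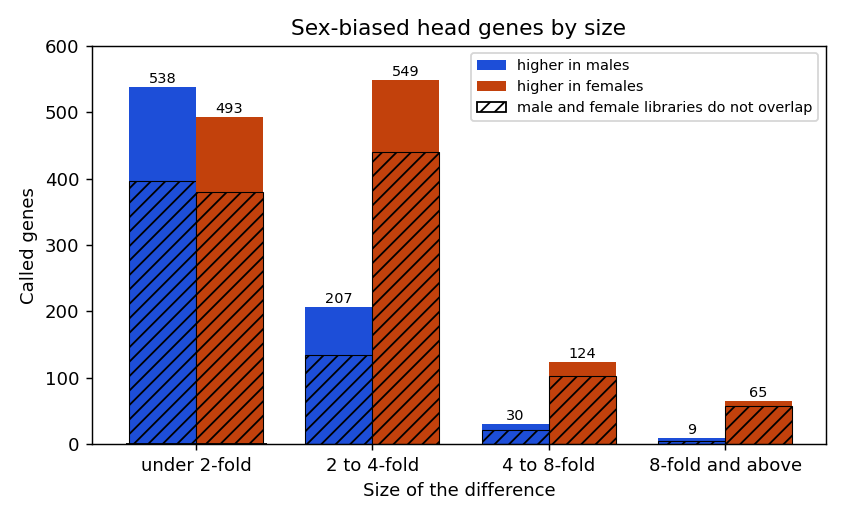
Number of called genes in each class of size, for genes higher in males and in females, with the hatched part showing genes whose male and female libraries do not overlap. The bars under 2-fold are of like height, 538 and 493, and at 8-fold and above they are 9 and 65.

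The 10 largest differences in each direction were taken among called genes whose sexes did not overlap and whose higher sex averaged 50 or more. Towards females, all 10 were genes that the tables list only by identifier. For each gene below, the values are normalized read counts, first in the IsoCS, CSrab and CS females in that order, then the lowest, median and highest of the 12 males. LOC101889640 on element A measured 2510, 2720 and 11100 in the females and 0, 1.12 and 13.5 in the males (log2 -10.72, SE 0.68, adjusted p = 3.34e-06). The highest male lay far below the lowest female, and the CS female held the highest value. LOC101900313 on element E measured 726, 580 and 425 against 0, 1.38 and 6.4 (log2 -7.98, SE 0.53, adjusted p = 3.6e-06). LOC101897531, with no assigned element, measured 1120, 648 and 574 against 0, 2.81 and 8.47 (log2 -7.90, SE 0.68, adjusted p = 3.49e-05). LOC101899355 on element A measured 251, 201 and 148 against 0, 0.961 and 2.52 (log2 -6.83, SE 0.49, adjusted p = 6.6e-06). In these 3 genes the females lay within 2-fold of one another.

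Other large female-higher genes had reads in every male head. LOC101896469 reached 47700, 45200 and 38100 in the females against 229, 825 and 2520 in the males (log2 -5.72, SE 0.54, adjusted p = 5.82e-05). The highest males were of replicate 3, at 1080 to 2520, still far below every female. LOC101893397 on element B measured 12600, 9210 and 9110 against 56.6, 100 and 233 (log2 -6.52, SE 0.37, adjusted p = 1.71e-06). LOC101898930 on element A measured 5790, 4190 and 6040 against 16.4, 99.3 and 171 (log2 -5.90, SE 0.51, adjusted p = 3.45e-05). By genotype LOC101893397 measured 170 ± 34.5 in YM, 83.2 ± 23.7 in YM(III), 121 ± 97.1 in IIIM #1 and 117 ± 56 in IIIM #2 (SD, n = 3 each).

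In other female-higher genes the females were spread widely. LOC105261940 on element A measured 5730 and 5820 in the IsoCS and CS females and 623 in the CSrab female, against 3.2, 18.5 and 80.9 in males (log2 -7.15, SE 0.69, adjusted p = 6.78e-05). LOC101891084 measured 53.6, 58.9 and 547 against 0, 0 and 6.74 (log2 -6.25, SE 0.73, adjusted p = 0.000199). LOC101887368 on element B measured 357, 64.9 and 152 against 0, 2.13 and 10.1 (log2 -5.62, SE 0.59, adjusted p = 0.000104). Every female lay above every male in these 3 genes by the rule that chose them. LOC101891113, the female-higher gene with the largest change on element C, ranged from 14.4 in the IsoCS female through 475 to 10500 in the CS female, against 0.48, 5.64 and 53.4 in males (log2 -5.89, SE 1.47, adjusted p = 0.0168). Here the IsoCS female lay within the male range, and the call was lost without the CSrab or the CS female. On element D the largest was LOC101887686, at 627, 439 and 607 against 3.88, 14.9 and 43.7 (log2 -5.27, SE 0.67, adjusted p = 0.000341).

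Towards males a single gene exceeded the rest by far. LOC101890728 on element E measured 19.6, 64.9 and 48.6 in the females and 2400, 6840 and 13900 in the males, a log2 difference of 7.31 (SE 0.45, adjusted p = 3.13e-06) or 158-fold. All 4 genotypes were high, at 6680 ± 2100 in YM, 9100 ± 1660 in YM(III), 8020 ± 5150 in IIIM #1 and 5120 ± 4000 in IIIM #2 (SD, n = 3 each). The 4 replicate 3 males ranged from 9070 to 13900 and the other 8 from 2400 to 8890. Next under the same limits came LOC101893875 on element A, at 12.4, 15.1 and 11.6 against 31, 186 and 515 (log2 3.62, SE 0.85, adjusted p = 0.012), and LOC101890094, at 3.27, 6.04 and 4.11 against 23.3, 63.5 and 121 (log2 3.61, SE 0.32, adjusted p = 3.67e-05). The first was highest in the replicate 3 males, at 434 to 515, and its call was lost without any 1 of the 3 females, while the second held in each alternative tried.

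Several male-higher genes rose mainly in replicates 1 and 2 or mainly in replicate 3. LOC109613747 (log2 2.64, SE 0.83, adjusted p = 0.0473), LOC101889588 (log2 2.35, SE 0.66, adjusted p = 0.0301) and LOC101901746 (log2 2.28, SE 0.70, adjusted p = 0.0437) were of the first kind. LOC101901746 measured 43.2, 54.3 and 63 in females, 69.3 to 126 in the replicate 3 males and 365 to 614 in the others. Against replicate 3 males alone these 3 genes did not pass (adjusted p = 0.078, 0.0766 and 0.0913), nor did any of them without any 1 of the 3 females (adjusted p from 0.0915 to 0.16). LOC101887669 on element D, with 10800, 11100 and 6120 in females, was of the second kind, at 41000 to 116000 in replicate 3 and 21100 to 39300 in the other males (log2 2.17, SE 0.45, adjusted p = 0.00649). Its difference was 2.94 against replicate 3 and 1.79 against replicates 1 and 2, past the threshold both times, but not without the CS female (adjusted p = 0.0519).

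Others were called against either set of males. LOC101897932 on element D measured 81.8, 100 and 159 in females and 360, 548 and 899 in males (log2 2.30, SE 0.22, adjusted p = 6.78e-05), with 2.43 against replicate 3 males and 2.23 against the rest. LOC101899619 on element C measured 487, 702 and 400 against 1670, 2830 and 6050 (log2 2.54, SE 0.32, adjusted p = 0.000301), with 2.98 against replicate 3 males and 2.31 against the rest. LOC101895987 on element C, the last of the 10 under those limits, measured 678, 813 and 791 against 1500, 3750 and 7700 (log2 2.17, SE 0.44, adjusted p = 0.00553). Its difference was 1.30 against replicate 3 males, at 1500 to 2150, and 2.61 against the rest, at 3380 to 7700. On element B the largest male-higher gene was LOC109612482, which measured 513 ± 225 in IIIM #2 and 12.5 ± 3.11 in YM, against 7.85, 4.53 and 19.2 in females, so that its call (log2 2.38, SE 0.40, adjusted p = 0.00197) did not hold against YM, YM(III) or IIIM #1 males alone, or against replicate 3 males (adjusted p = 0.16).

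**Figure D3:**
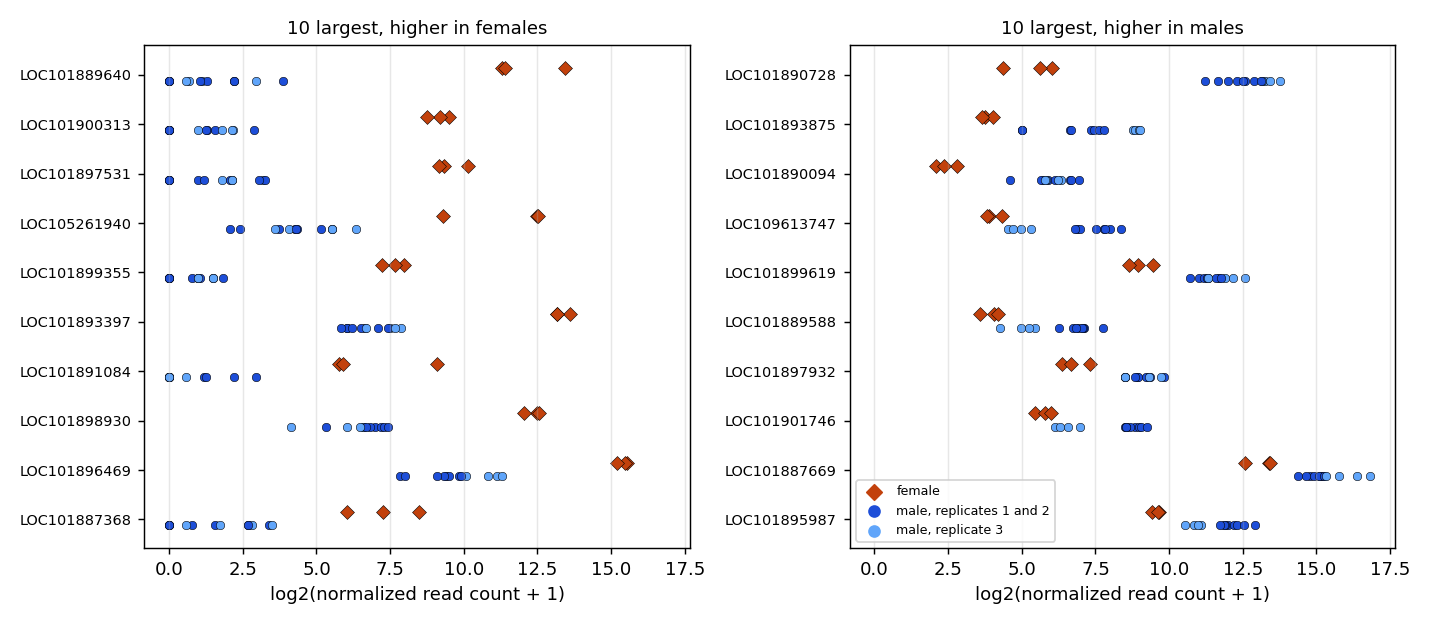
Values of the 10 largest female-higher and 10 largest male-higher genes in each library on the scale log2(normalized read count + 1); diamonds are the 3 females, dark circles the 8 males of replicates 1 and 2, light circles the 4 replicate 3 males. Sexes do not overlap in any of the 20 genes, by the rule that chose them (no overlap and a mean of at least 50 in the higher sex), and in LOC109613747, LOC101889588 and LOC101901746 the light circles lie next to the females.

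Few genes met a strict rule for being limited to 1 sex. A gene was counted as limited when every library of one sex had a normalized read count of at least 10 and every library of the other sex at most 1. By this rule 0 genes were male-limited and 1 was female-limited. The female-limited gene was LOC101894391 on element A, at 13.7, 10.6 and 16.4 in the females, with 0 reads in 11 males and 0.963 in 1 IIIM #1 male (log2 -3.76, SE 0.40, adjusted p = 0.000104). Depth limits this count, since 3 reads correspond to 11.6 normalized reads in YM replicate 1 and 10.9 in IIIM #2 replicate 2, the shallowest libraries, against 1.44 in the deepest male. In those 2 libraries 1 read, at 3.88 and 3.64, already exceeded the limit of 1, while in females it measured 0.654 to 0.755. Male-limited genes had to reach 10 in 12 libraries and female-limited ones in 3. The 2 counts are therefore not a measured difference between the sexes. With at most 2 allowed in the other sex the counts were 1 and 3, and with a mean of at least 10 in one sex and under 1 in the other they were 9 and 15.

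Among the genes admitted by the means were clear cases and cases of single genotypes. LOC101899355, described above, and LOC101890686, at 13.1, 26.4 and 13.7 in females and 0 reads in 11 of 12 males, were high in each female (log2 -4.05, adjusted p = 0.000104 for the latter). The 1 male-limited gene with at most 2 allowed in females was LOC105262442, described below. LOC101897587 on element C was admitted by the means alone, at 0, 1.51 and 0.684 in females and 5.43, 19.6 and 47.9 in males (log2 3.57, SE 0.62, adjusted p = 0.00243). LOC101887770 measured at most 0.755 in females, 0 to 1.96 in YM males and 29 to 203 in the other 9 males (log2 4.19, SE 0.60, adjusted p = 0.000728), and against YM males alone its difference was 0 (adjusted p = 1). LOC101896776 on element E and LOC105261906 had 0 reads in all 3 females and in 9 males, and measured 75.5 to 459 and 51.2 to 101 in the 3 YM(III) males, so what passed the test there (adjusted p = 0.0163 and 0.0136) was a difference of 1 genotype.

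Of the 9 male-higher genes at 8-fold or more, 5 lay in all 12 males above all females: LOC101890728, LOC101893875, LOC101890094, LOC101897587 and LOC105262442. The last measured 1.31, 1.51 and 0.684 in females and 18.1, 44 and 80 in males (log2 4.20, SE 0.41, adjusted p = 7.4e-05), and its call held in each alternative in which it was tested. The other 4 overlapped. Besides LOC101887770, LOC101888943 measured 19.6, 0 and 22.6 against 14.8, 175 and 501 (log2 3.95, SE 0.94, adjusted p = 0.0133), and LOC101900085 and LOC109612921 passed narrowly (adjusted p = 0.0417 and 0.0416), LOC101900085 with values from 0 to 175 among males. The call of LOC101888943 was lost without the CSrab female (adjusted p = 0.0961), and those of the last pair without any 1 female. That pair did not pass against replicate 3 males alone either (adjusted p = 0.112 for LOC101900085 and 0.263 for LOC109612921).

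Genes with a symbol allow the differences to be read by function. Of 58 such genes 55 were tested and 15 were called, 13 higher in females and 2 in males, where over all tested genes 16.5% were called, 10.1% higher in females and 6.41% in males. The yolk protein gene yp3 was higher in every female head, but unevenly: 582, 608 and 6560 in the IsoCS, CSrab and CS females, against 24.3, 45.7 and 149 in males (log2 -4.59, SE 0.66, adjusted p = 0.000697). The CS female lay far above the others. The call was lost against YM or YM(III) males alone (adjusted p = 0.0602 and 0.0658). Among the female-higher 13, 4 are genes of metabolism and growth, grouped so after their values were seen. ODC, ornithine decarboxylase, the first enzyme of polyamine synthesis, measured 2570, 2400 and 1990 against 233, 490 and 891 (log2 -2.32, SE 0.27, adjusted p = 0.000191). TPS, which makes the precursor of trehalose, the blood sugar of insects, measured 19800, 18900 and 18100 against 3500, 4670 and 7960 (log2 -1.89, SE 0.24, adjusted p = 0.000286). In both genes the replicate 3 males were the highest males, 549 to 891 for ODC and 6330 to 7960 for TPS, and remained below all females.

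TCTP, a protein of cell growth, measured 17600, 21500 and 17000 against 7930, 9380 and 13100 (log2 -0.96, SE 0.16, adjusted p = 0.00198). Prohibitin, of the inner mitochondrial membrane, measured 2670, 3510 and 3220 against 1460, 2010 and 2260 (log2 -0.71, SE 0.17, adjusted p = 0.0125). Its call was lost without the CSrab or the CS female. Of 3 subunits of the chaperonin CCT, which folds actin and tubulin, 2 were higher in females, beside 10.1% of all tested genes. The third, CCT-delta, was not called (log2 -0.82, adjusted p = 0.121). CCT-zeta measured 7630, 7720 and 7490 in females and 2890, 3580 and 3810 in males (log2 -1.15, SE 0.12, adjusted p = 9.79e-05), with little spread in either sex. CCT-eta measured 4950, 4910 and 5490 against 3140, 3650 and 4320 (log2 -0.45, SE 0.10, adjusted p = 0.00959), lost without the CS female. Neither heat shock gene with a symbol was called over all males. HSP70 measured 98800, 121000 and 102000 in females, 14700 to 52600 in replicate 3 males and 82900 to 121000 in the others (log2 -0.74, SE 0.63, adjusted p = 0.464). It was lower in males against replicate 3 males alone (log2 -2.04, adjusted p = 0.0171) and did not pass against the rest (log2 -0.10, adjusted p = 0.459).

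Genes of detoxification were called on both sides. GST, a glutathione transferase, was the clearest male-higher gene with a symbol: 6730, 8330 and 6800 in females against 14900, 18800 and 23300 in males (log2 1.37, SE 0.12, adjusted p = 3.49e-05). Its difference was 1.32 against replicate 3 males and 1.40 against the rest. GST-6A lay on the other side and was not called (log2 -0.74, SE 0.26, adjusted p = 0.0751), though it passed against replicates 1 and 2 alone (adjusted p = 0.00602). MdaE7, a carboxylesterase known from resistance to organophosphates, was higher in females at 7090, 5080 and 5710 against 2680, 3180 and 3860 (log2 -0.88, SE 0.14, adjusted p = 0.0015). Reads of such multigene families may be split or shared between near-identical copies, so levels of single members are uncertain.

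Of 10 cytochrome P450s and their electron donors, 3 were higher in females, 0 were higher in males and 7 were not called (over all genes 10.1% were female-higher and 6.41% male-higher), with a median log2 difference of -0.81 against -0.01 over all genes. CYP6D3 measured 15400, 15500 and 14200 against 8160, 9340 and 12300 (log2 -0.67, SE 0.14, adjusted p = 0.00687). CYP6A40 measured 547, 487 and 469 against 266, 312 and 447 (log2 -0.62, SE 0.14, adjusted p = 0.0104), lost without the IsoCS female. CYP6A24 measured 5660, 9260 and 6870 against 1760, 3890 and 6120, with 1 male inside the female range (log2 -0.98, SE 0.30, adjusted p = 0.0397), and its call was lost without any 1 female and against replicate 3 males alone (adjusted p = 0.106). In 3 uncalled members the replicate 3 males lay above the other males. CYP6G4 measured 50700, 51300 and 44900 in females, 31800 to 79700 in replicate 3 males and 13900 to 25100 in the others (log2 -0.97, adjusted p = 0.19). CPR, the reductase that feeds electrons to P450s, measured 15000, 14700 and 12700 in females, 10200 to 15500 in replicate 3 males and 6840 to 7790 in the others (log2 -0.67, adjusted p = 0.106). CYP6D8 had the same order, with a log2 difference of -0.21 against replicate 3 and -2.13 against replicates 1 and 2. All 3 passed against replicates 1 and 2 alone (adjusted p = 0.000163 for CYP6G4, 1.3e-05 for CPR and 0.000292 for CYP6D8), and none did against replicate 3 alone.

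Of 7 neuronal and sensory genes 1 was called, beside 16.5% of all tested genes. IR25a, a co-receptor of smell and taste neurons, was higher in females at 766, 1000 and 970 against 378, 533 and 634 (log2 -0.83, SE 0.15, adjusted p = 0.0034). The sodium channel gene para-like measured 4230, 5610 and 4000 against 2170, 4150 and 5070 (log2 -0.25, adjusted p = 0.457), and the nicotinic receptor subunit nAChRbeta3 measured 516, 541 and 630 against 431, 642 and 849 (log2 0.12, adjusted p = 0.593). For both, the sexes overlapped. For the neuropeptide gene pdf and the GABA receptor gene MdRdl, females lay near the replicate 3 males and below the other males. Males of replicates 1 and 2 measured 1160 to 1620 for pdf and 120 to 229 for MdRdl, while replicate 3 males measured 411 to 762 and 9.7 to 29.1, and females 562 to 624 and 14.4 to 20.5. Against replicates 1 and 2 alone both passed the test (adjusted p = 4.38e-06 and 4.32e-06), and against replicate 3 alone neither did (0.906 and 0.841). Gr2 split the other way, at 228 to 357 in replicate 3 males, 3.88 to 95.3 in the other males and 244, 419 and 407 in females (log2 -2.39, adjusted p = 0.182), and it passed against replicates 1 and 2 alone (adjusted p = 0.00741).

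Sxl, which sets sex in Drosophila but is not the sex switch of the house fly, was called slightly higher in males, at 1080, 1270 and 1020 against 1190, 1430 and 2020 (log2 0.37, SE 0.11, adjusted p = 0.0437). The CSrab female lay inside the male range, and against replicate 3 males alone it did not pass (adjusted p = 0.0774). The call was lost in 20 of 33 alternatives, TMM factors among them, with adjusted p values up to 0.341, while the direction was towards males in all 33. Of 4 serpins, protease inhibitors, SPN15 alone was called, beside 16.5% of all tested genes. SPN15 measured 1750, 1480 and 1360 against 685, 858 and 1370 (log2 -0.72, SE 0.22, adjusted p = 0.0404). It did not pass against replicate 3 males alone (adjusted p = 0.181) or without any 1 female (0.0955 to 0.177). None of 3 superoxide dismutases was called, beside the same 16.5%, with differences from -0.18 to 0.40. The 4 antimicrobial genes were not called by limma over all males, again beside 16.5% of all tested genes, and varied widely within each sex. Diptericin measured 18.3 in the IsoCS female, 2060 in the CSrab female and 4290 in the CS female, against 1.44, 15.9 and 8540 in males (log2 -3.52, SE 2.10, adjusted p = 0.28), the highest being YM replicate 2. Attacin measured 19, 1220 and 5050 against 9.31, 91.2 and 2290 (log2 -2.22, SE 1.58, adjusted p = 0.373). Defensin-1 (log2 -0.87, adjusted p = 0.472) and lysozyme (log2 -2.62, adjusted p = 0.127) were lowest in the IsoCS female among the females. Against replicate 3 males alone, at 613 to 2520, defensin-1 was lower in males (log2 -2.38, adjusted p = 0.0162), females being at 3180, 5710 and 6950.

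**Figure D4:**
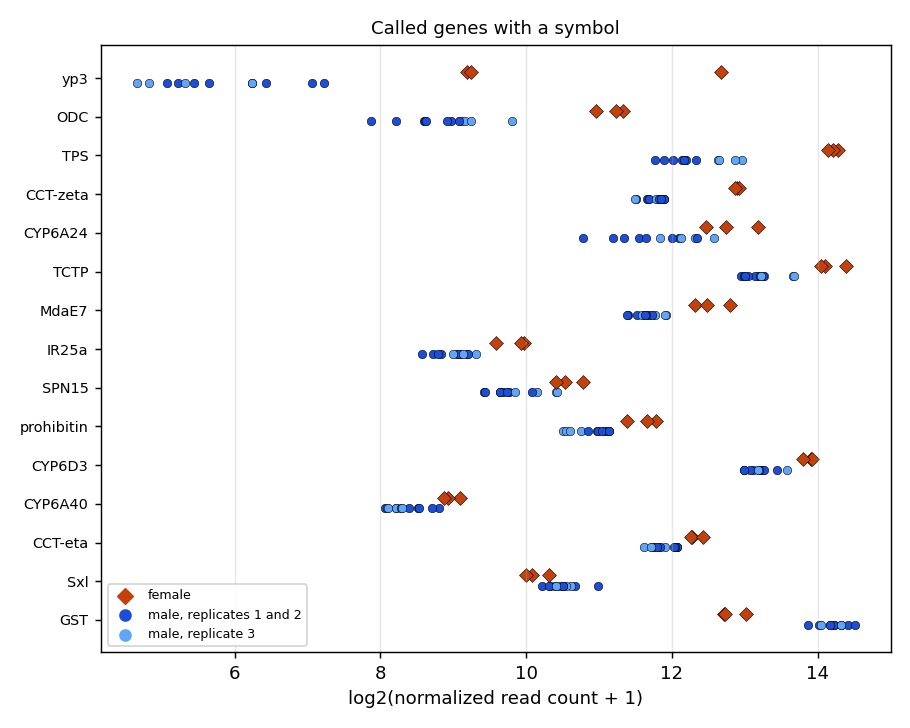
Values of the 15 called genes with a symbol in each library on the scale log2(normalized read count + 1), ordered by the difference; diamonds are females, dark circles males of replicates 1 and 2, light circles replicate 3 males. Sxl and GST lie higher in males, the other 13 higher in females, with yp3 spread most widely among the females.

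Sex-biased genes came from all 6 Muller elements, in shares near the background on 5 of them. Of the tested genes, male-higher ones made up 5.79% on A, 6.99% on B, 6.79% on C, 6.36% on D and 6.72% on E, against 6.41% over all. Female-higher ones made up 10.5%, 12%, 11.5%, 9.04% and 9.47% in the same order, against 10.1%. Element A, chromosome III, which carries the male-determining locus in the IIIM genotypes, held 105 of 667 male-higher genes with an assigned element (15.7%) and 191 of 1055 female-higher ones (18.1%), beside 17.9% of tested genes. Genes at least 8-fold higher in females were 65 of all 12234 tested. By element they were 14 of 1814 tested on A, 12 of 1731 on B, 9 of 2137 on C and 3 of 1870 on D. On E they were 9 of 2545, on F 0 of 34, and with no assigned element 18 of 2103. These are descriptions with no set test, and genes are not independent replicates.

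Element F, the X chromosome, held few genes. Of its 34 tested genes 6 were higher in males (17.6%, against 6.41% over all genes) and 0 in females. Against replicate 3 males alone 7 were higher in males (20.6%, against 9.82% over all genes) and 1 in females (2.94%, against 11.3%). Against replicates 1 and 2 alone 14 were higher in males (41.2%, against 25.7%) and 1 in females (2.94%, against 27.1%). The median log2 difference was 0.27, against -0.01 over all genes, and 25 of 34 (73.5%) were above 0 against 49.1% of all genes. All 6 differences were under 2-fold. LOC101891655 measured 1580, 1800 and 1600 in females and 2450, 3000 and 3300 in males (log2 0.81, SE 0.11, adjusted p = 0.000579), with 2770 to 3200 as the range of the 4 genotype means. LOC101887559 measured 18200, 17700 and 19100 against 22400, 33700 and 45100 (log2 0.84, SE 0.22, adjusted p = 0.0204), lower in the replicate 3 males at 22400 to 27900. In both genes every male lay above every female. LOC101890503, LOC101890846, LOC101893208 and LOC101893369 differed by 0.55, 0.42, 0.44 and 0.45 (adjusted p = 0.0295, 0.0329, 0.0421 and 0.0315). Against replicate 3 males alone LOC101887559, LOC101890503, LOC101890846 and LOC101893208 did not pass (adjusted p = 0.051, 0.0592, 0.0699 and 0.164). Their differences there were 0.46, 0.52, 0.51 and 0.51, in a fit that pooled the genotypes. The count rests on single libraries: 1, 2 and 1 genes were called without the IsoCS, CSrab and CS female in turn, 3 without YM(III) replicate 1 and 7 without IIIM #1 replicate 3. Each male genotype set against the same females gave a median over the element of 0.25 in YM, 0.30 in YM(III), 0.25 in IIIM #1 and 0.36 in IIIM #2, while the medians over all genes were -0.03, -0.01, 0.02 and -0.05.

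**Figure D5:**
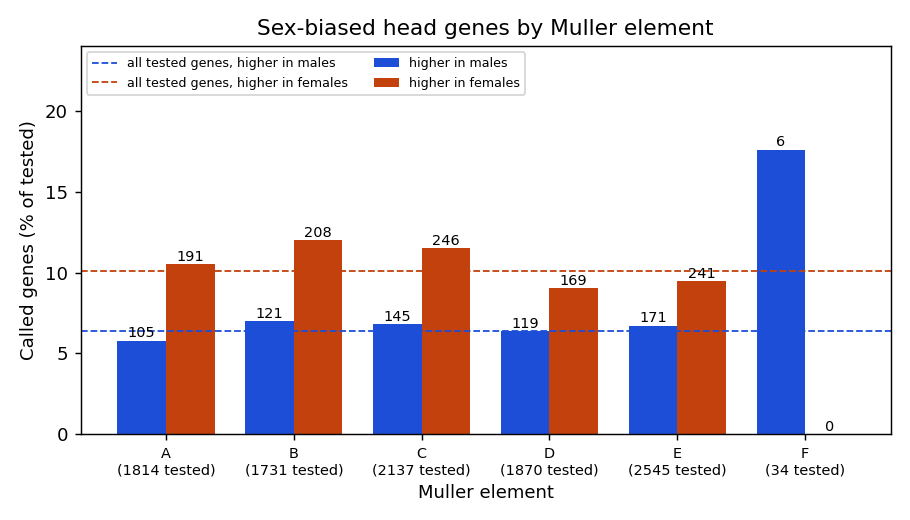
Percent of tested genes on each Muller element called higher in males and higher in females, with the number of genes above each bar and dashed lines for all tested genes. Elements A to E lie near the lines, and element F has 6 male-higher genes of 34 and no female-higher gene.

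Single male genotypes set against the 3 females gave fewer calls, from 393 for YM (86 higher in males, 307 in females) and 901 for IIIM #2 (334 and 567) to 1150 for IIIM #1 (422 and 728) and 1224 for YM(III) (470 and 754). These comparisons share the females and have 3 males each, so they are given side by side and not compared. Female-higher genes outnumbered male-higher ones in each. The study's strains also allow the sex difference itself to be compared between IsoCS, CSrab and CS, with 1 female library per strain that is assumed to vary like the males. The replicate 3 split of the males enters the error of this comparison. It can therefore miss real differences, and a low count does not show the strains to be alike. By limma's F test 0 genes passed (0%), with 142 at an unadjusted p under 0.05 and 4 called without IIIM #1 replicate 3. The gene with the smallest p was LOC101892939, with 0 reads in the CSrab female, 267 and 255 in the IsoCS and CS females and 89.3, 500 and 696 in males (log2 differences of -1.03, 9.27 and 0.27 in IsoCS, CSrab and CS, adjusted p = 0.0647). LOC109612482 and LOC105262085 followed, both with adjusted p = 0.194, the latter with differences of -2.09, 5.16 and -0.73. Next were LOC101897428, at 1190, 7800 and 4320 in females against 776, 971 and 1360 in males (adjusted p = 0.368), and LOC101890985, whose CS female lay within the male range at 1100 (adjusted p = 1). These last 2 were called between the sexes over all strains (log2 -1.83 and -0.94, adjusted p = 0.00632 and 0.00218), but not against replicate 3 males alone (0.0588 and 0.1). There, with the genotypes pooled, the differences were -1.77 and -0.86.

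In abdomens, from a table normalized separately, 8195 of 11486 tested genes differed between 12 males and 2 females (71.3%), 4477 higher in males (39%) and 3718 in females (32.4%). Genes called in the head were then counted by their call in the abdomen. Of 653 male-higher head genes tested in both tissues 34.8% were male-higher and 36.8% female-higher in abdomen, beside 36.3% and 35.1% of all 10345 genes tested in both. Of 1140 female-higher head genes 47.1% were male-higher and 30.4% female-higher in abdomen. Male-higher head genes made up 6.05% of the male-higher, 6.62% of the female-higher and 6.28% of the uncalled abdomen genes. Female-higher head genes made up 9.56% of the female-higher, 14.3% of the male-higher and 8.64% of the uncalled abdomen genes. Over all 10345 genes tested in both, 653 were male-higher and 1140 female-higher in the head. LOC101889640 and yp3 were female-higher in both tissues, LOC101889640 with 4680 and 7120 in female abdomens and 1.79 to 111 in male ones. LOC101890728 and GST were male-higher in both, LOC101890728 with 0.655 and 0.894 in female abdomens and 53.6 to 824 in male ones. ODC, TPS, MdaE7 and CYP6D3, higher in female heads, were higher in male abdomens (log2 3.38, 3.42, 3.75 and 4.46, each called). In abdomens too, fewer cells of a type and less RNA per cell cannot be told apart. The abdomen libraries of YM replicate 2 and IIIM #2 replicate 2 had 0.79 M reads each. LOC101896469, at 38100 or more in each female head, measured 406 and 341 in female abdomens and 80.9 to 1110 in male ones (log2 0.02, adjusted p = 0.983).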

How the data were processed

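The deposited tables, 1 per tissue, hold normalized counts per gene and library, a linear signal that the authors normalized, per the file headers. Tools listed in the submitters' processing notes are DESeq2 1.16.1, HTSeq 0.9.1, HISAT2 0.12.2 and CASAVA 1.8, with no roles. Neither the build nor the strand setting of counting is given in the sources used here. Per the labels' protocols, libraries were made with a stranded mRNA kit. Within each library 100% of values were whole multiples of 1 step (tolerance 0.001 reads), so whole reads were recovered, 5.8 to 39.24 M a head library.

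Genes reaching 10 in 3 or more of the 15 head libraries were tested with limma 3.58.1 in R 4.3.3 on log2(value + 1), with a mean per group, a variance trend and robust moderation. The contrast was the mean of the 4 male genotype means minus the female mean, with Benjamini-Hochberg adjustment over all 12234 genes, two-sided. Against replicate 3 males alone the 4 males formed a single group, so genotype differences entered the error of that fit. Means are given ± SD over libraries. On recovered reads, edgeR 4.0.16 called 2184 genes and DESeq2 1.42.0 called 2963, as alternatives. In a test on counts simulated for male against female heads (12095 genes), the limma fit called 22 of 99 genes changed 2-fold and 70 of 100 changed 4-fold, and 4 unchanged genes. Plots used Python 3.11.15 and matplotlib 3.10.9.

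Named genes were those with a symbol that were called, the 10 largest called changes each way whose sexes did not overlap and whose higher sex averaged 50 or more, the sex-limited genes, the largest called change each way per element and the 5 smallest p between strains. The uncalled genes with a symbol, the further genes of element F, those at 8-fold or more in males, and those limited by the means were chosen after their values were seen. The members and lists were chosen with earlier results of these data known. Gene identifiers carry no product names in the tables. Of 16540 identifiers 13644 matched the RefSeq gene table (assembly Musca_domestica.polishedcontigs.V.1.1), used for synonyms only, CYP6A40 among them. CYP6A1, Cyt-b5, Gst-2 and ace are likewise symbols given to identifiers listed by LOC number, and count among the 58 genes with a symbol. Planned lists that rest on product names, such as opsins, odorant receptors, ribosomal proteins and testis genes, were not analysed here, and functions were grouped by symbol instead. Pairing of the sexes by replicate number was not seen. Deviations of same-numbered males and females correlated at -0.19 to 0.25, with 2 of 12 pairs over 0.1. Pairs of other numbers correlated at -0.31 to 0.28, with 4 of 24 over 0.1. Each number holds 1 female, of a strain of her own, so this check cannot exclude a pairing.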

Additional observations from a re-analysis of the deposited data

How the results depend on the processing

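The 2015 calls numbered 1696 to 2963 across edgeR, DESeq2, TMM factors, a strain term, pseudocounts of 5 or 0.1, no filter, a filter on means under 50, and reads thinned to 5.8 M (chosen after seeing the data). The 784 male-higher genes became 1335 with DESeq2, 410 of them at 2-fold or more in place of 246. No pairing of males with females by replicate number was seen, though the check could not exclude one. The males of replicate 3 lay apart from the other males. The replicate block gave 3124 genes, 1295 of them male-higher and 379 of those at 2-fold or more. A term for replicate 3 gave 3376 (1430 and 1946), with 396 male-higher genes at 2-fold or more and 10 on element F. Replicates 1 and 2 of both sexes gave 5556 (2649 and 2907), with 730 and 1284 at 2-fold or more. Replicate 3 males alone, chosen after the data were seen, gave 1201 male-higher genes, 529 at 2-fold or more. Replicate 1 and 2 males alone, also chosen then, gave 6457 (3140 and 3317), with 729 and 1318 at 2-fold or more. On element F 14 were male-higher there, 41.2% of its tested genes against 25.7% of all. The cause of these shifts was not tested.

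Single genotypes gave 393 (86 and 307) for YM, 1224 (470 and 754) for YM(III), 1150 (422 and 728) for IIIM #1 and 901 (334 and 567) for IIIM #2, with fewer samples. At 2-fold or more YM gave 62 and 284, YM(III) 276 and 520, IIIM #1 149 and 511, and IIIM #2 206 and 485. Element F had 0, 4, 2 and 1 male-higher genes for YM, YM(III), IIIM #1 and IIIM #2, and over all males 0 at 2-fold or more. Element A's share of male-higher genes was 12.5% with a strain term, 12.3% for YM, 22.3% for YM(III), 16.4% for IIIM #1 and 20% for IIIM #2. Its share of female-higher genes was 17.6% for YM, 18.8% for YM(III), 19.3% for IIIM #1 and 21.9% for IIIM #2.

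Female-limited genes numbered 3 with a strain term, 9, 2, 4 and 8 for YM, YM(III), IIIM #1 and IIIM #2 alone, 6 for replicate 3 males, 4 with thinned reads, and 0, 3 and 15 with at most 0.5, at most 2 and means. Male-limited ones numbered 7, 2 and 4 for YM(III), IIIM #1 and IIIM #2, and 1 and 9 with at most 2 and means.

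Leaving out 1 library gave 886 (without the CSrab female) to 2583 (without IIIM #2 replicate 3) calls, 312 (without the CS female) to 1036 male-higher and 564 to 1547 female-higher. At 2-fold or more these were 144 (without the IsoCS female) to 347 and 400 to 886. Element F had 1 to 7, element A's shares were 11.8% to 16.5% and 17.7% to 19%, limited genes were 0 and 1 to 3, the strain test gave 0 to 4, and abdomens gave 6358 to 8359.

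Direction was followed across the alternatives for 69 named genes only, not for every called gene. Among these 69, reversed directions were seen only for uncalled genes. They were pdf at -0.04 against replicate 3 males, para-like at 0.01 against IIIM #1 and nAChRbeta3 at -0.30 against YM. Attacin reversed at 0.38 and defensin-1 at 0.11 with replicates 1 and 2 of both sexes, and defensin-1 at 0.11 against YM. LOC105262085 reversed at 0.78 (strain term), 0.89 (YM), 2.66 (IIIM #2), 1.25 (without the IsoCS female) and 0.76 (thinned reads). LOC105262085 measured -1.5 without the CSrab female and passed with DESeq2 alone (-2.48, adjusted p = 0.0379).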
